A study of Mus musculus with 12 samples.

Results

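The cytoplasmic ribosomal protein genes were followed in cortical mRNA of single mouse embryos, at E14.5 and E12.5, ages in days of embryonic development. Genes were taken by symbol: Rps or Rpl followed by a number, with an optional ending a, x, l or l1, together with Rplp0, Rplp1, Rplp2 and Rpsa. This gave 83 genes of the 24411 in the deposited tables, 32 of the small subunit and 51 of the large subunit. Of these, 80 passed the filter on low counts and were tested. The 3 others were Rpl10l with 0 counts over all 12 libraries, Rpl3l with 1 count and Rpl39l with 10 counts. The rule uses symbols and no measured value.

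The 12 libraries form 4 groups of 3 embryos: E14.5 HARE5Hs/Hs, E14.5 WT, E12.5 HARE5Hs/Hs and E12.5 WT. HARE5 is an enhancer of Fzd8, a Wnt receptor gene, and HARE5Hs/Hs mice are homozygous for a knock-in of its human sequence. WT mice lack it, and no other allele or agent is labelled for either genotype. Cortex microdissected from each embryo was used whole, so the values are averages over progenitors, neurons and any attached tissue. In such bulk samples, fewer cells of a type and less RNA per cell cannot be told apart. Neither litter nor sex is labelled, and p-values measure the spread between these embryos.

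Ribosomal proteins are built with ribosomal RNA into the small and large ribosomal subunits, and cells make them in matched amounts. Their mRNAs are short and abundant, and most begin with a 5′ terminal oligopyrimidine (TOP) tract, a C followed by further C and T bases, through which mTORC1 signalling controls their translation. Proliferating neural progenitors in early cortex are known for high ribosome production, and Myc family factors drive transcription of many of these genes.

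Ribosomal protein mRNA was a smaller part of the cortical transcriptome at E14.5 than at E12.5. In HARE5Hs/Hs embryos the members took 3.77%, 3.54% and 3.58% of all gene counts at E14.5, and 4.46%, 5.08% and 4.79% at E12.5. In WT embryos they took 3.76%, 3.97% and 4.26% at E14.5, and 4.30%, 5.12% and 5.08% at E12.5. No E14.5 library reached the lowest E12.5 library of its own genotype, but in WT the gap between the nearest libraries was narrow. Total counts ran from 11593202 to 17670103 per library. FPKM, counts scaled to library size and gene length, gives these short mRNAs more weight: the members held 14.3% of summed FPKM in E14.5 HARE5Hs/Hs embryos and 16.9% in E12.5 HARE5Hs/Hs embryos, and 15.6% in E14.5 WT and 17.4% in E12.5 WT embryos.

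**Figure D1:**
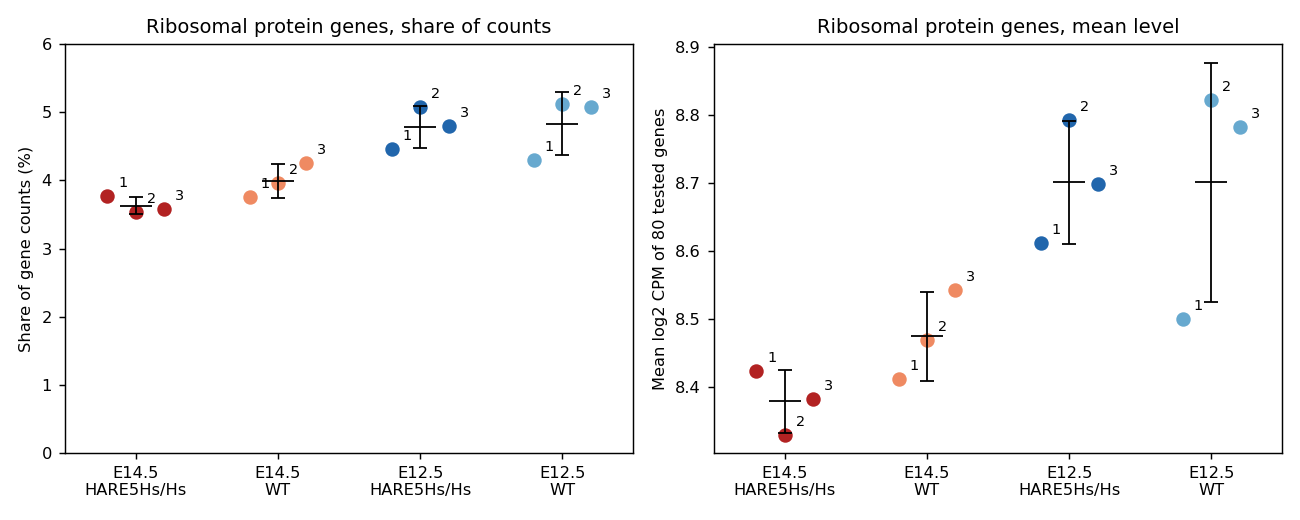
Left, share of all gene counts (%) held by the 83 ribosomal protein genes; right, mean log2 CPM of the 80 tested genes; points are embryos with their replicate numbers, bars are mean ± SD over 3 embryos. E14.5 libraries lie between 3.54% and 4.26%, and in the right panel E12.5 WT replicate 1 sits at 8.50, below the 2 other E12.5 WT embryos.

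Levels between members differed widely per length. Over the 12 libraries the median member had a mean FPKM of 970, and 64 of the 83 lay between 500 and 2000. The highest was Rpl41, which encodes a very short basic peptide of the large subunit, at 2556 FPKM. Rps29, a small zinc-binding protein of the small subunit, had 1930 FPKM and Rps12, in the head of the small subunit, 1743 FPKM. Rpl10l and Rpl39l, known from testis, and Rpl3l, known from heart and skeletal muscle, were the 3 lowest. In all, 9 members had a mean below 100 FPKM, among them Rps27 at 2.21, Rps4l at 31.3, Rpl7l1 at 60.3, Rpl30 at 62.3 and Rpl26 at 63.8 FPKM. Rps15a was also in this group, at 99.4 FPKM, where its counts and FPKM imply a gene length of 5019 bases.

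The comparison of ages asks how expression changed between these stages of cortical neurogenesis. Changes are given as log2 fold changes of E14.5 over E12.5, with a standard error written SE. Levels of single genes are CPM, counts scaled to library size by the TMM method. A gene is said to have fallen or risen where edgeR's quasi-likelihood test gave a Benjamini-Hochberg adjusted p under 0.05 over 14311 genes.

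In HARE5Hs/Hs embryos, 56 of 80 tested members fell and 0 rose; of all tested genes, 22.0% fell in this comparison, 23.7% rose and 45.7% passed in either direction. The median change of the members was −0.32, against −0.03 over all tested genes. For 79 of 80 members the change was below 0, as it was for 52.3% of all genes. All 3 E14.5 libraries lay below all 3 E12.5 libraries in 73 members; 29.6% of all genes met that description. By subunit, 24 of 32 small subunit genes and 32 of 48 large subunit genes fell, with medians of −0.35 and −0.31.

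In WT embryos, 26 of 80 tested members fell and 0 rose, where 15.2% of all tested genes fell, 20.0% rose and 35.2% passed in either direction. The median change was −0.20, against −0.01 over all tested genes. The change was below 0 for 79 of 80 members and for 50.8% of all genes. The libraries of both ages did not overlap in 21 members, all lower at E14.5, and in 22.9% of all genes in that direction. Of the small subunit genes, 12 of 32 fell, and of the large subunit genes 14 of 48, with medians of −0.22 and −0.19. The changes were small in both genotypes: the medians correspond to E14.5 levels of 0.801 times those at E12.5 in HARE5Hs/Hs embryos and 0.868 times in WT embryos.

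The WT count moved with single libraries. In E12.5 WT replicate 1, only 1 of 80 members was above its group mean, against 78 and 77 members in replicates 2 and 3. The mean log2 CPM of the members was 8.50 there, and 8.82 and 8.78 in the others. Without E12.5 WT replicate 1, 62 of 80 members fell, with a median of −0.31, where 2188 of 14499 genes fell. The E14.5 libraries then lay below both remaining E12.5 libraries in 78 members and in 29.4% of all genes. Leaving that library out for the overlap count was chosen after its values were seen. Leaving out replicate 2 or 3 of E12.5 WT left 5 and 6 falling members, where 1418 of 14533 and 1528 of 14524 genes fell. These 2 member counts were not above the share of all genes. Leaving out replicate 1, 2 or 3 of E14.5 WT left 9, 17 and 21 falling members. In those fits 1335 of 14550, 1644 of 14545 and 1926 of 14525 genes fell, so the count of 9 was near the share of all genes. In HARE5Hs/Hs embryos the count without a library ran from 36 to 57, lowest without E12.5 HARE5Hs/Hs replicate 2, where 2155 of 14523 genes fell. By member, 35 of the 56 HARE5Hs/Hs calls and 4 of the 26 WT calls passed in every one of the 6 leave-one-out fits; the 4 were Rplp2, Rpl30, Rps2 and Rps20.

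All 26 members that fell in WT also fell in HARE5Hs/Hs embryos, 30 more passed in HARE5Hs/Hs alone, and 24 passed in neither. This does not show that the genotypes differ: the test of that difference is given with the genotype comparisons. Across the 80 members the changes of the 2 genotypes correlated at 0.73, a description over genes that share libraries. In the authors' deposited table, which holds DESeq2 results, 57 members in HARE5Hs/Hs and 37 in WT were lower at an adjusted p under 0.05 and 0 were higher. Of all genes with an adjusted p there, 6598 of 15456 in HARE5Hs/Hs and 5232 of 15804 in WT passed in either direction.

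**Figure D2:**
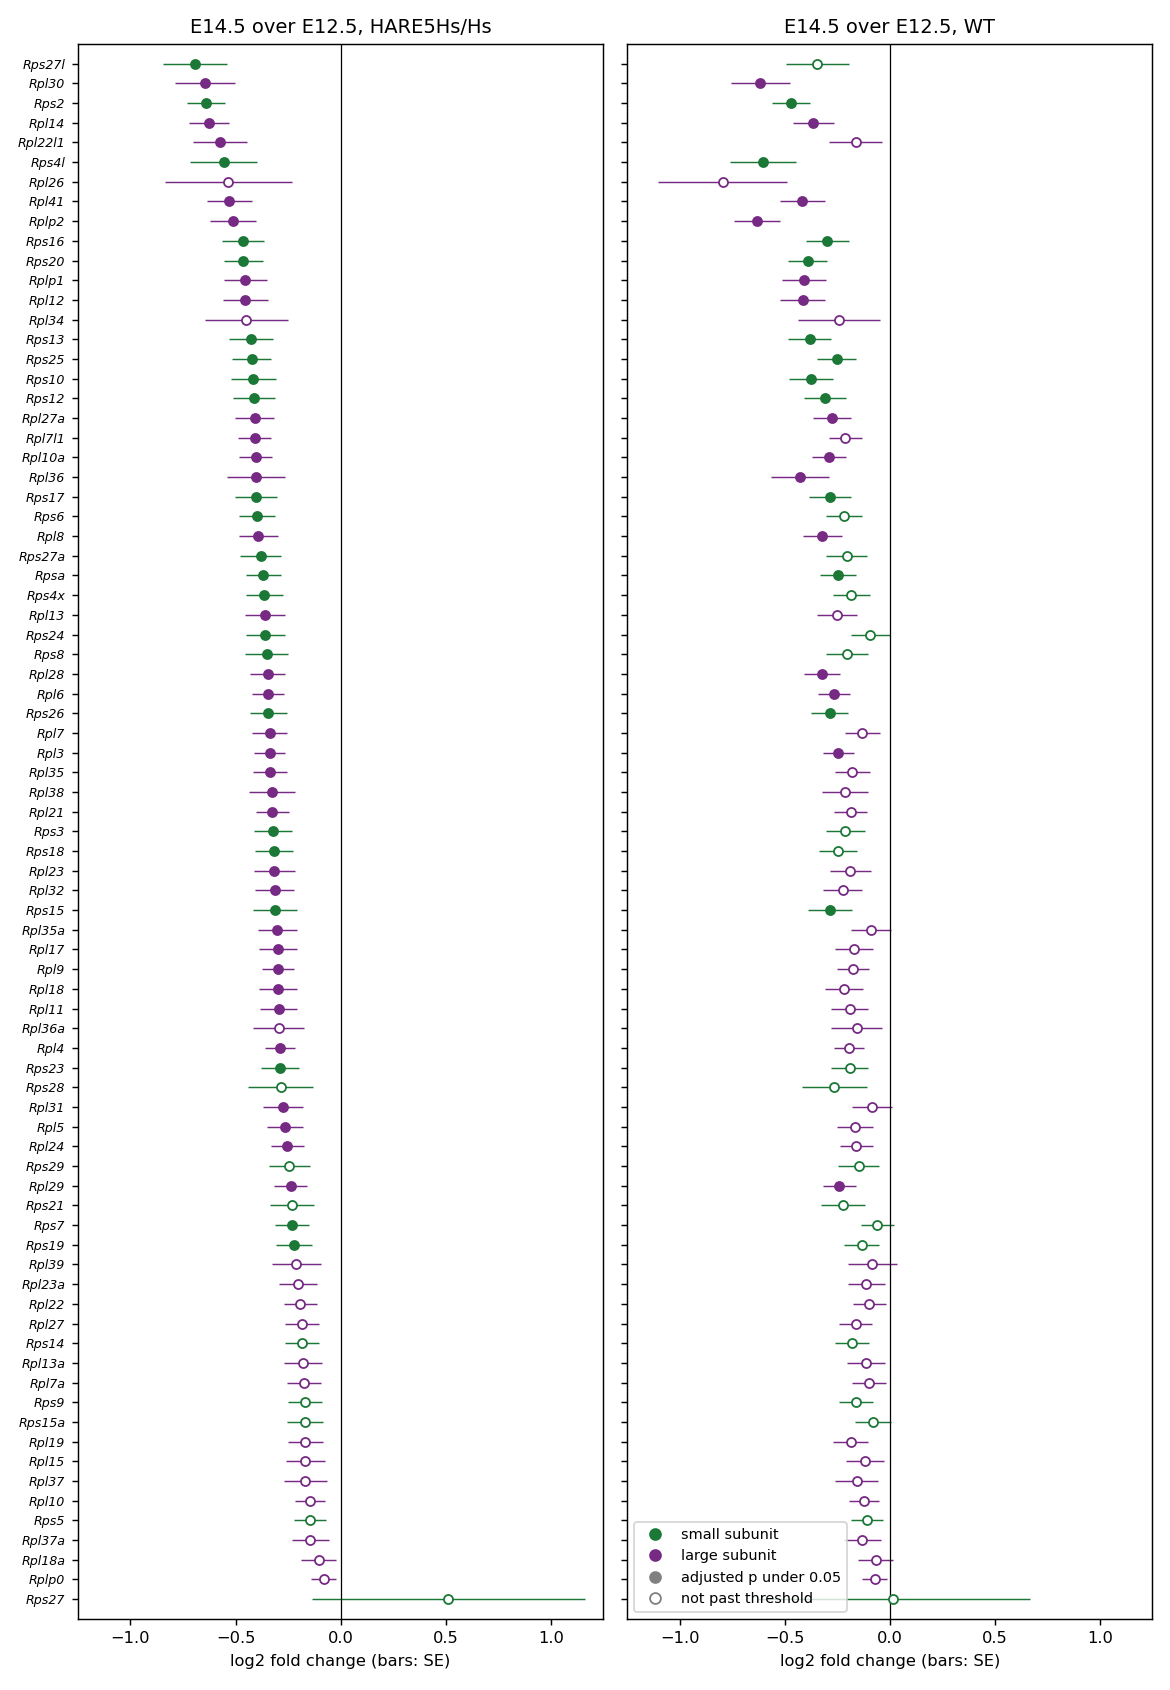
log2 fold change of E14.5 over E12.5 for 79 of the 80 tested members, HARE5Hs/Hs at left and WT at right, with bars of 1 SE; filled points passed an edgeR adjusted p of 0.05 and colours mark the subunit. Of the points drawn, 55 are filled in HARE5Hs/Hs and 26 in WT, all below 0, and Rps27, with 152 counts in all, has the widest bars.

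The start of transcription was read for members with the largest falls and for Rplp0, since the TOP tract is the feature these mRNAs are known to share. Each line gives 15 bases before and 15 bases from the annotated start, 5′ to 3′ on the transcribed strand, from the RefSeq promoter table of GRCm38.p6. Capitals mark a C within 5 bases of the start that is followed by at least 4 C or T bases, and those bases; of several such C, the one nearest the start was taken.
Rplp2, chr7:141447636-141447665, plus strand: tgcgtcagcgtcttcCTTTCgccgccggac
Rps2, chr17:24720048-24720077, plus strand: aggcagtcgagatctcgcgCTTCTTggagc
Rpl14, chr9:120571502-120571531, plus strand: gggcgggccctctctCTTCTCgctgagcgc
Rps27l, chr9:66946071-66946100, plus strand, first of 2 listed starts: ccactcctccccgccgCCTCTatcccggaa
Rpl22l1, chr3:28805493-28805522, plus strand: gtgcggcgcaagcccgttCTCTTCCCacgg
Rpl41, chr10:128549154-128549183, minus strand: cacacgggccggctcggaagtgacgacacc
Rplp0, chr5:115559452-115559481, plus strand: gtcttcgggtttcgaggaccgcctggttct

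The nearest such C stood at the annotated start in Rplp2 and Rpl14, 1 base after it in Rps27l, 3 bases in Rpl22l1 and 4 bases in Rps2. In Rplp2 and Rpl14 the run of C and T bases also extends upstream of the annotated start, in the lower-case letters, so the capitals are not the whole run. No such run is in the windows of Rpl41 and Rplp0, which says only that these letters do not stand near the annotated start. Rpl30, Rpl36 and Rps4l were not among the 62 members matched in that table. Over the 62, such a C stood at the start in 13 (21.0%) and within 5 bases of it in 29 (46.8%), against 3.01% and 21.2% of 27025 genes. The 29 tested members with such a C had median changes of −0.33 in HARE5Hs/Hs and −0.21 in WT embryos, and the 30 tested members without it −0.31 and −0.19, so the medians were nearly alike. A match is a description of the letters, and a start annotated a few bases off would miss it.

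The stalk of the large subunit, which recruits the elongation factors, was uneven. Its base, Rplp0, had 1387, 1398 and 1382 CPM in E14.5 HARE5Hs/Hs embryos and 1414, 1482 and 1509 CPM in E12.5 HARE5Hs/Hs embryos. In WT embryos it had 1389, 1484 and 1531 CPM at E14.5 and 1471, 1556 and 1602 CPM at E12.5. The Rplp0 libraries of both ages were close together in HARE5Hs/Hs and overlapped in WT, and the changes of −0.08 (SE 0.059) and −0.07 (SE 0.059) did not pass, with edgeR adjusted p of 0.285 and 0.366.

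Rplp2, one of the mobile stalk proteins, had 223, 204 and 219 CPM in E14.5 HARE5Hs/Hs embryos and 278, 355 and 288 CPM in E12.5 HARE5Hs/Hs embryos. In WT embryos it had 201, 192 and 210 CPM at E14.5 and 266, 318 and 349 CPM at E12.5. The ages did not overlap in either genotype. Rplp2 fell by 0.51 (SE 0.109, edgeR adjusted p = 0.00259) in HARE5Hs/Hs and by 0.63 (SE 0.109, edgeR adjusted p = 0.00123) in WT embryos. Its partner Rplp1 averaged 297 ± 12.7 CPM at E14.5 and 407 ± 30.6 CPM at E12.5 in HARE5Hs/Hs embryos, and 301 ± 21.7 and 399 ± 58.0 CPM in WT embryos (SD, n = 3 each). Rplp1 fell by 0.45 (edgeR adjusted p = 0.00372) and by 0.41 (edgeR adjusted p = 0.00959). The WT call of Rplp1 was lost without E12.5 WT replicate 2 or 3, at adjusted p from 0.0504 to 0.0521. The 3 stalk genes are thus listed with changes from −0.07 to −0.63 although their proteins form 1 complex; whether their changes differ from each other was not tested.

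Rpsa, a small subunit protein also known as a laminin receptor, had 1555, 1496 and 1542 CPM in E14.5 HARE5Hs/Hs embryos and 1862, 2042 and 2021 CPM in E12.5 HARE5Hs/Hs embryos. In WT embryos it had 1566, 1727 and 1833 CPM at E14.5 and 1766, 2178 and 2132 CPM at E12.5. The ages were apart in HARE5Hs/Hs and overlapped in WT, where replicate 1 was the low E12.5 library. Rpsa fell by 0.37 (SE 0.085, edgeR adjusted p = 0.00396) and by 0.25 (SE 0.085, edgeR adjusted p = 0.0395). The WT call was lost when any of 4 libraries was left out, E12.5 WT replicates 2 and 3 and E14.5 WT replicates 1 and 2, at adjusted p from 0.0744 to 0.189.

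Among the other small subunit genes, Rps2, whose protein lies at the mRNA entry channel, had a clear fall in both genotypes. It had 973, 934 and 898 CPM in E14.5 HARE5Hs/Hs embryos and 1295, 1577 and 1503 CPM in E12.5 HARE5Hs/Hs embryos, and 1040, 1133 and 1145 CPM in E14.5 WT and 1356, 1675 and 1565 CPM in E12.5 WT embryos. Every E14.5 library was below every E12.5 library of either genotype. Rps2 fell by 0.64 (SE 0.091, edgeR adjusted p = 0.000227) in HARE5Hs/Hs and by 0.47 (SE 0.091, edgeR adjusted p = 0.00224) in WT embryos. Rps6, the substrate of S6 kinase, averaged 671 ± 24.5 CPM at E14.5 and 884 ± 69.2 CPM at E12.5 in HARE5Hs/Hs embryos, where it fell by 0.40 (edgeR adjusted p = 0.00266). In WT embryos Rps6 averaged 749 ± 40.0 and 872 ± 89.0 CPM, and its change of −0.22 did not pass (edgeR adjusted p = 0.0639). Rps29, second by FPKM, did not pass in either genotype, with changes of −0.24 and −0.15 in HARE5Hs/Hs and WT. Rps12 fell by 0.41 in HARE5Hs/Hs and by 0.31 in WT embryos (edgeR adjusted p of 0.00553 and 0.0317); in WT it was lost without either of replicates 2 and 3 at E12.5 or 1 and 2 at E14.5, at adjusted p from 0.0850 to 0.155.

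Of the large subunit genes, Rpl41 had 534, 532 and 466 CPM in E14.5 HARE5Hs/Hs embryos and 661, 802 and 748 CPM in E12.5 HARE5Hs/Hs embryos. In WT embryos it had 522, 619 and 604 CPM at E14.5 and 666, 831 and 833 CPM at E12.5. No E14.5 library reached an E12.5 library of either genotype. Rpl41 fell by 0.53 (SE 0.108, edgeR adjusted p = 0.00199) and by 0.42 (SE 0.108, edgeR adjusted p = 0.0109). In WT the call was lost without either of E12.5 WT replicates 2 and 3 or the first E14.5 WT replicate, at adjusted p from 0.0537 to 0.0574.

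Rpl14 had 380, 320 and 347 CPM in E14.5 HARE5Hs/Hs embryos and 486, 601 and 530 CPM in E12.5 HARE5Hs/Hs embryos. The E14.5 WT libraries had 399, 427 and 437 CPM and the E12.5 WT libraries 490, 549 and 587 CPM. Both genotypes were lower at E14.5 without overlap. Rpl14 fell by 0.63 (SE 0.097, edgeR adjusted p = 0.000350) in HARE5Hs/Hs and by 0.36 (SE 0.096, edgeR adjusted p = 0.0121) in WT embryos; the WT call was lost without replicate 3 at E12.5 or replicate 1 at E14.5, at adjusted p from 0.0502 to 0.0664. Rpl36, another large subunit gene, averaged 125 ± 9.91 CPM at E14.5 and 165 ± 28.9 CPM at E12.5 in HARE5Hs/Hs embryos, and 115 ± 3.82 and 155 ± 28.7 CPM in WT embryos. It fell by 0.40 (edgeR adjusted p = 0.0325) and by 0.43 (edgeR adjusted p = 0.0318). In WT, its call passed only with all 6 libraries or without E12.5 WT replicate 1, and it was otherwise at adjusted p from 0.0658 to 0.157; in HARE5Hs/Hs it was lost without E12.5 replicate 2 or E14.5 replicates 2 or 3, at 0.0900 to 0.194.

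Rpl30 encodes a large subunit protein that, in yeast, represses splicing of its own transcript. It was a low row, with 4361 counts over 12 libraries. It had 17.3, 13.8 and 15.0 CPM in E14.5 HARE5Hs/Hs embryos and 27.9, 23.2 and 21.0 CPM in E12.5 HARE5Hs/Hs embryos, and 18.1, 20.9 and 23.5 CPM in E14.5 WT and 34.0, 31.9 and 29.9 CPM in E12.5 WT embryos. The ages did not overlap within either genotype. Rpl30 fell by 0.64 (SE 0.143, edgeR adjusted p = 0.00323) and by 0.62 (SE 0.141, edgeR adjusted p = 0.00571).

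**Figure D3:**
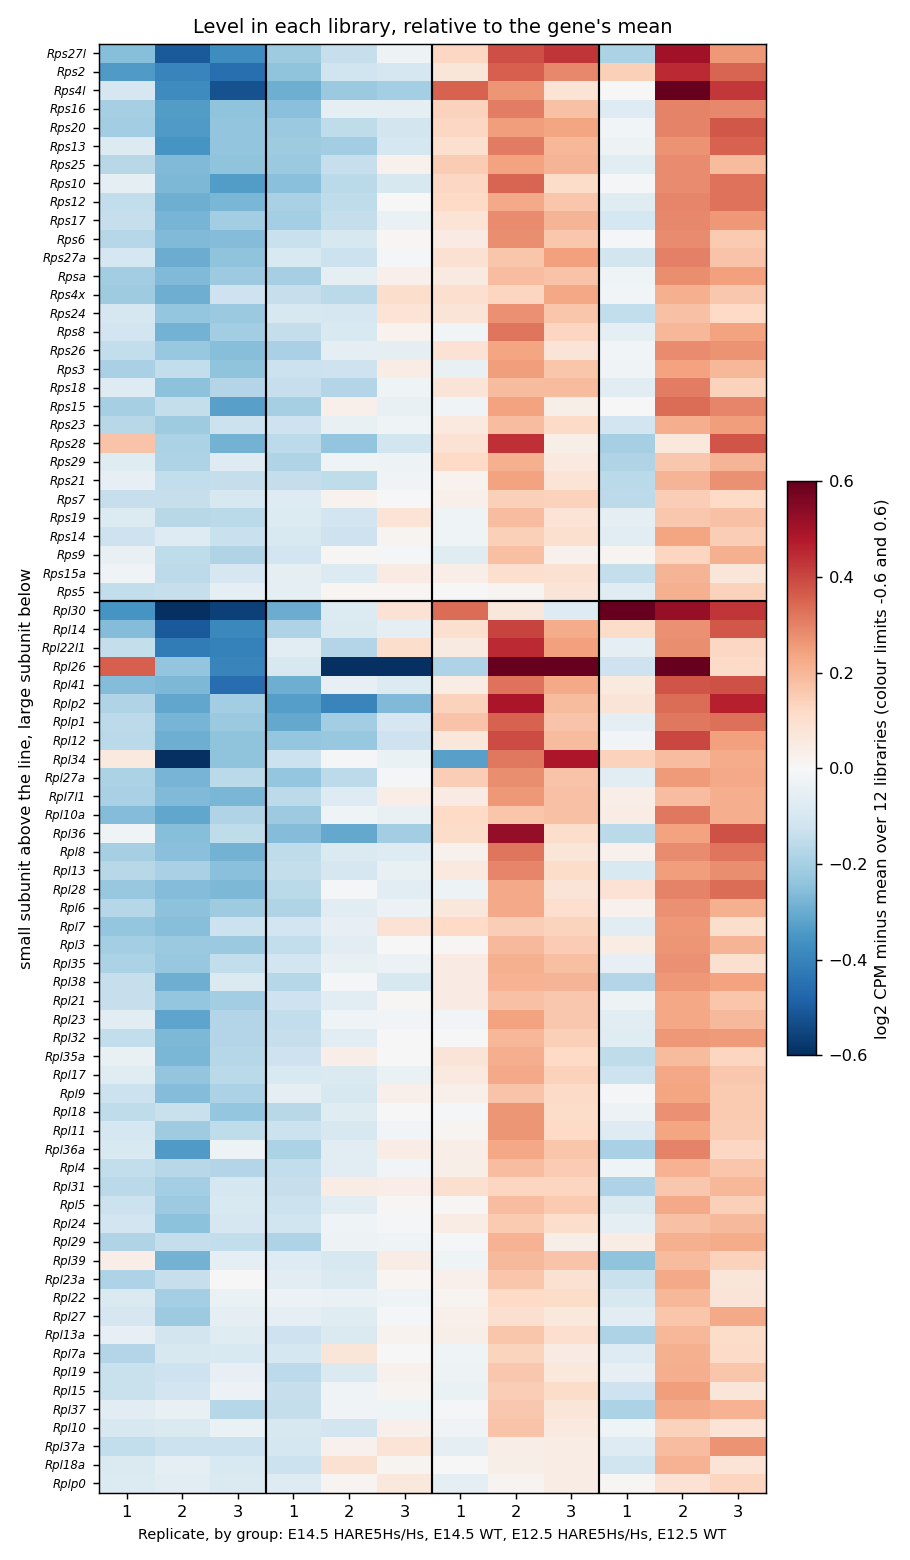
Each row is a tested member (Rps27 and 1 other are left out), small subunit above the line and large subunit below, and each column an embryo; colour is log2 CPM minus the mean of that gene over 12 libraries, with colours ending at −0.6 and 0.6. E14.5 libraries at left are mostly blue and E12.5 libraries mostly red, except E12.5 WT replicate 1, pale or blue in most rows.

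Several members belong to pairs in which a gene named as like a ribosomal protein stands beside its namesake. Rps27l, a target of p53 in human cells, had 38.4, 32.3 and 35.4 CPM in E14.5 HARE5Hs/Hs embryos and 50.0, 59.9 and 61.6 CPM in E12.5 HARE5Hs/Hs embryos. In WT embryos it had 39.6, 41.6 and 44.8 CPM at E14.5 and 40.1, 65.1 and 54.8 CPM at E12.5. The ages overlapped in WT, through E12.5 replicate 1, and were apart in HARE5Hs/Hs. Rps27l fell by 0.69 (SE 0.153, edgeR adjusted p = 0.00310) in HARE5Hs/Hs, and its change of −0.34 (SE 0.152) in WT did not pass (edgeR adjusted p = 0.0963), though it did without E12.5 WT replicate 1 (−0.54).

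Rpl22l1 is the paralogue of Rpl22, whose protein represses Rpl22l1 in mouse. Rpl22l1 had 46.9, 38.6 and 39.1 CPM in E14.5 HARE5Hs/Hs embryos and 53.7, 70.6 and 61.3 CPM in E12.5 HARE5Hs/Hs embryos. In WT embryos it had 49.4, 45.8 and 55.7 CPM at E14.5 and 49.8, 62.7 and 56.3 CPM at E12.5. The ages were apart in HARE5Hs/Hs and overlapped in WT. Rpl22l1 fell by 0.57 (SE 0.127, edgeR adjusted p = 0.00323) in HARE5Hs/Hs embryos and had a change of −0.16 (SE 0.127, edgeR adjusted p = 0.340, not passing) in WT embryos. Rpl22 did not pass in either genotype, at −0.19 (edgeR adjusted p = 0.0643) in HARE5Hs/Hs and −0.10 (edgeR adjusted p = 0.352) in WT. Per length the pair is close, with mean FPKM of 186 for Rpl22l1 and 153 for Rpl22.

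Rpl7l1 averaged 122 ± 3.63 CPM at E14.5 and 162 ± 11.8 CPM at E12.5 in HARE5Hs/Hs embryos and fell by 0.41 (edgeR adjusted p = 0.00144). Per length Rpl7 was far higher, at 1448 FPKM, and it fell by 0.34 there (edgeR adjusted p = 0.00613). In WT neither passed, at −0.21 for Rpl7l1 and −0.13 for Rpl7; both passed without E12.5 WT replicate 1. Rps4l averaged 18.2 ± 2.75 CPM at E14.5 and 26.8 ± 2.55 CPM at E12.5 in HARE5Hs/Hs embryos, and 19.3 ± 0.628 and 29.3 ± 6.06 CPM in WT embryos. Rps4l fell by 0.56 in HARE5Hs/Hs and by 0.60 in WT embryos (edgeR adjusted p of 0.0131 and 0.0114), and each call was lost without 1 library, E14.5 HARE5Hs/Hs replicate 3 (0.0627) and E12.5 WT replicate 2 (0.0647). Rps4x, its X-linked namesake, fell by 0.36 in HARE5Hs/Hs embryos (edgeR adjusted p = 0.00529) and had a change of −0.18 in WT embryos (edgeR adjusted p = 0.125, not passing). Rpl3, the namesake of Rpl3l, fell by 0.34 and by 0.25 in HARE5Hs/Hs and WT embryos (edgeR adjusted p of 0.00286 and 0.0212), the WT call being lost without either of replicates 2 and 3 at E12.5 or 1 and 2 at E14.5, at adjusted p from 0.0515 to 0.117. Rpl10 and Rpl39, the namesakes of Rpl10l and Rpl39l, did not pass in either genotype.

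**Figure D4:**
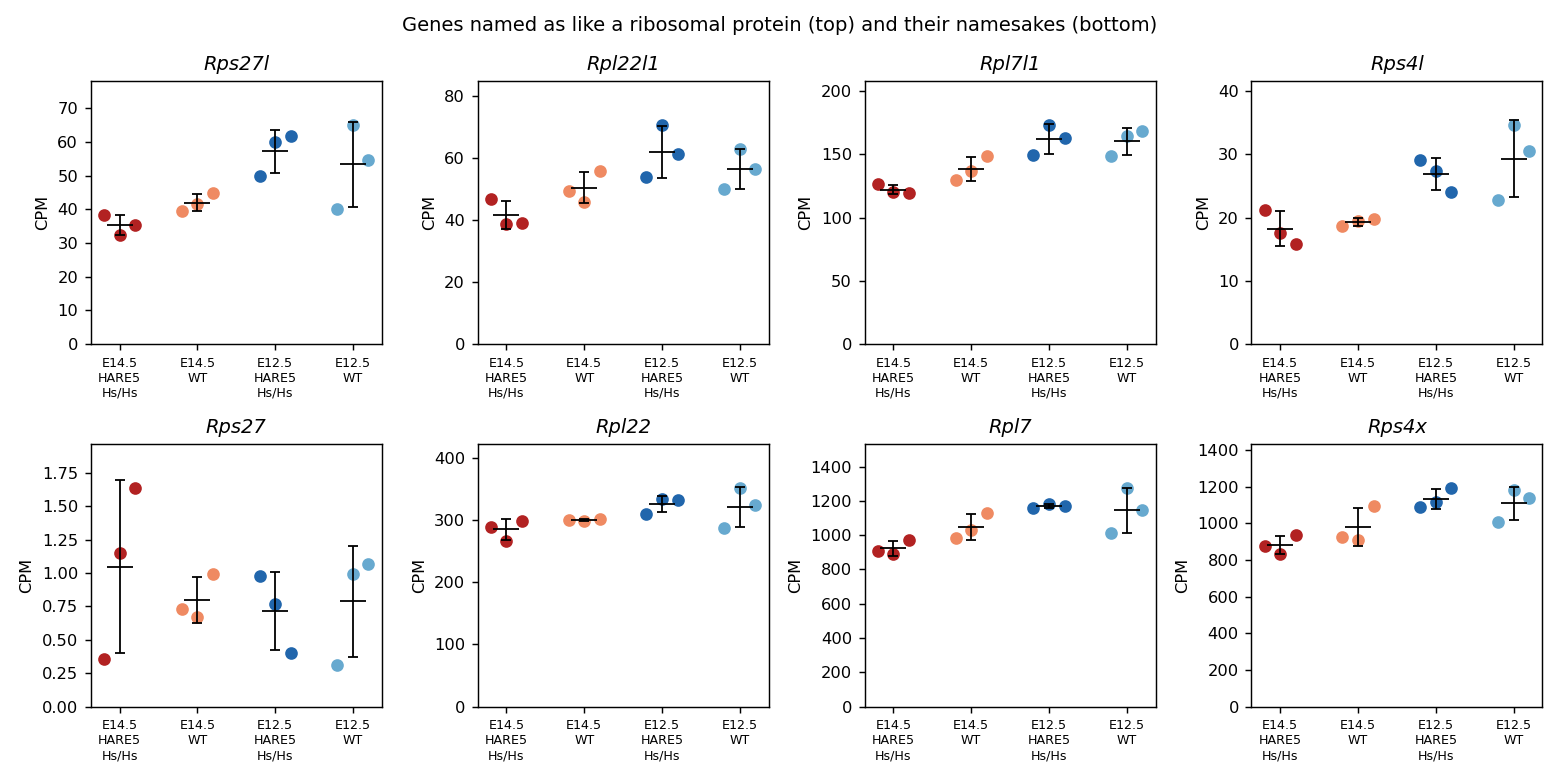
CPM by group for 4 genes named as like a ribosomal protein (top) and their namesakes (bottom); points are embryos, bars mean ± SD over 3, and each panel has its own scale from 0. Rps27l lies between 32.3 and 65.1 CPM, while the Rps27 row has at most 1.64 CPM.

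Some rows cannot be read as the level of their protein's mRNA, because near-identical copies elsewhere in the genome can share their reads. Rps27 held 152 counts, or 0.311 to 1.64 CPM, while the row Rps27rt, named as its retrocopy, held 61144 counts, or 288 to 369 CPM. Rpl34 held 6332 counts and Rpl34-ps1, named as its pseudogene, 40670. With the retrocopy counts added, the Rps27 change was −0.16 in HARE5Hs/Hs and −0.13 in WT embryos, against 0.51 and 0.02 for the row alone, and none of these passed. Rpl26, Rpl30 and Rpl34 had far fewer counts than most members, with at most 35.5, 34.0 and 46.2 CPM in any library; whether copies hold their reads was not tested. Rpl26 varied widely, with 26.7, 17.7 and 15.9 CPM in E14.5 HARE5Hs/Hs and 18.3, 35.5 and 33.9 CPM in E12.5 HARE5Hs/Hs embryos, and its changes of −0.53 in HARE5Hs/Hs and −0.79 in WT did not pass.

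The members also moved together over the libraries after group means were removed. The median correlation between 2 members over the 12 libraries was then 0.80. Each member correlated with the mean of the others at a median of 0.89, and at 0.8 or more in 68 of 80 members (85.0%), against 2.21% of other tested genes. These correlations share libraries and depth and pool the 4 groups. The member mean minus its group mean was −0.20 log2 CPM in E12.5 WT replicate 1 and from −0.09 to 0.12 in the other libraries. In E14.5 HARE5Hs/Hs replicates 1, 2 and 3, 62, 13 and 38 of 80 members were above their group mean. The part of single libraries or groups in the correlations was not tested. The non-members whose log2 CPM followed the member mean most closely over all 12 libraries were Dera, a deoxyribose-phosphate aldolase (0.98), E2f5, a cell cycle transcription factor (0.98), and C1qbp, a mitochondrial matrix protein (0.98). Across members the correlation of the age change with log2 FPKM was −0.15 in HARE5Hs/Hs and 0.11 in WT embryos.

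Other features moved with age beside the members. All 8 neuron markers rose in both genotypes, with summed levels of 4480 to 6276 CPM in E14.5 HARE5Hs/Hs against 1371 to 2487 CPM in E12.5 HARE5Hs/Hs embryos, and 3664 to 4786 against 1477 to 1558 CPM in WT. All 7 S phase genes fell in both, with sums of 1278 to 1534 CPM at E14.5 against 2182 to 2427 CPM at E12.5 in HARE5Hs/Hs embryos, and 1507 to 1759 against 2111 to 2593 CPM in WT. Meningeal and mesenchymal markers summed to 10.5 to 414 CPM in E14.5 HARE5Hs/Hs and 1118 to 1968 CPM in E12.5 HARE5Hs/Hs embryos, and to 86.2 to 803 CPM in E14.5 WT and 1270 to 2116 CPM in E12.5 WT embryos. Of these 6 markers, 5 fell in HARE5Hs/Hs and 2 in WT embryos. No marker of these 3 lists was at 0 in any group. The members were low in E12.5 WT replicate 1. Of its group it had the fewest S phase counts (2111 CPM) and the most meningeal counts (2116 CPM). Its neuron marker counts (1558 CPM) were close to those of E12.5 WT replicate 3 (1546 CPM). In E12.5 HARE5Hs/Hs replicate 1, only 3 of 80 members were above the group mean. Of its group it had the fewest S phase counts (2182 CPM) and the most neuron marker counts (2487 CPM). Its meningeal counts were the fewest of its group (1118 CPM), unlike in E12.5 WT replicate 1. Endothelial markers summed to 76.4 to 149 CPM in E14.5 HARE5Hs/Hs and 212 to 286 CPM in E12.5 HARE5Hs/Hs embryos, and to 76.9 to 176 CPM in E14.5 WT and 206 to 291 CPM in E12.5 WT embryos, with 4 of 4 and 3 of 4 falling in HARE5Hs/Hs and WT. Erythroid genes summed to 2635 to 5941 CPM in E14.5 HARE5Hs/Hs and 4986 to 14894 CPM in E12.5 HARE5Hs/Hs embryos, and to 781 to 2331 CPM in E14.5 WT and 4414 to 5975 CPM in E12.5 WT embryos; 4 and 5 of 8 tested fell, and Hbb-bs was at 0 in both E12.5 groups. Of 8 radial glia markers, 5 fell and 1 rose in HARE5Hs/Hs and 3 fell and 2 rose in WT embryos. Of 5 intermediate progenitor markers, 3 and 4 rose. Choroid plexus markers fell in 1 of 5 in each genotype, ventral telencephalon markers in 1 and 0 of 5, and microglia markers in 0 of 4 in both. The part of these markers in the members' change was not tested.

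Gene length also moved with age. When tested genes were cut into 5 equal classes by the length that counts and FPKM imply, 72 of 80 members were in the shortest class. The other 2791 genes of that class had median changes of −0.17 in HARE5Hs/Hs and −0.12 in WT embryos, and genes of the longest class 0.20 and 0.16. The members' medians of −0.32 and −0.20 lie below those of the shortest class. That class has a median length of 1012 bases and most members are shorter, so the comparison is not at equal length. The 379 other genes at or above the members' lower quartile of 343 CPM had medians of −0.02 and 0.00, and 31.1% and 19.8% of them fell. The part of length in the members' change was not tested.

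**Figure D5:**
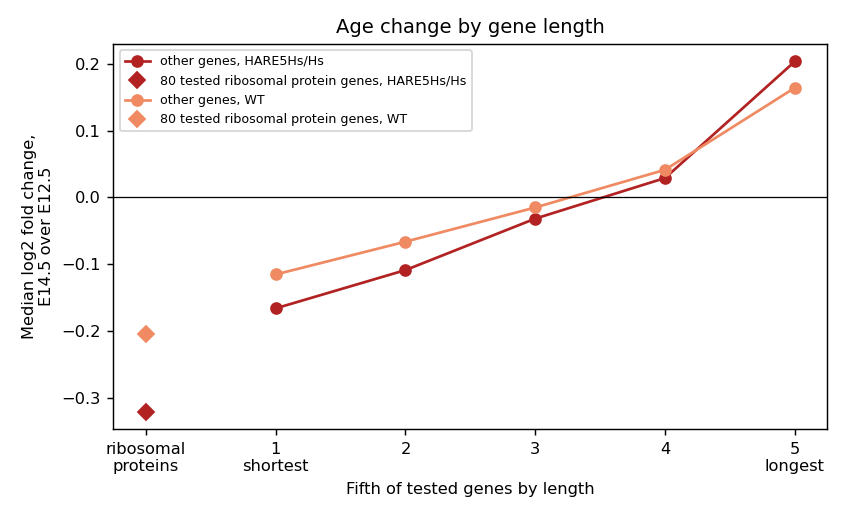
Median log2 fold change of E14.5 over E12.5 for tested genes other than the members, in 5 classes by length (lines), beside the 80 members (diamonds), HARE5Hs/Hs dark and WT light. Medians climb from −0.17 and −0.12 in the shortest class to 0.20 and 0.16 in the longest, with the members at −0.32 and −0.20.

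The comparison of genotypes asks whether the human enhancer altered these genes. At E14.5, 0 of 80 members passed between HARE5Hs/Hs and WT embryos in edgeR, where 0.0% of all tested genes passed. At an unadjusted p under 0.05 there were 5 members and 1708 genes of all 14311, and DESeq2 called 37 genes but 0 members. The median member change of HARE5Hs/Hs over WT was −0.10, with 75 of 80 members below 0 against 51.4% of all genes. All HARE5Hs/Hs libraries lay below all WT libraries in 24 members, and in 8.93% of all genes; in 0 members and 9.48% of all genes they lay above. The group means of member log2 CPM were 8.38 ± 0.047 in E14.5 HARE5Hs/Hs and 8.48 ± 0.065 in E14.5 WT embryos (SD, n = 3 each), and their libraries overlapped, with HARE5Hs/Hs replicate 1 at 8.42 above WT replicate 1 at 8.41. Between these groups the neuron marker sum was 4480 to 6276 CPM in HARE5Hs/Hs and 3664 to 4786 CPM in WT, and the S phase sum 1278 to 1534 against 1507 to 1759 CPM. Erythroid genes summed to 2635 to 5941 CPM in HARE5Hs/Hs and 781 to 2331 CPM in WT embryos, without overlap; 8 of 8 tested were above 0 and at an unadjusted p under 0.05, with a median change of 1.66. Meningeal and mesenchymal markers summed to 10.5 to 414 CPM in HARE5Hs/Hs and 86.2 to 803 CPM in WT embryos, with 6 of 6 below 0 and a median change of −1.22. Ventral telencephalon markers summed to 31.6 to 88.8 CPM in HARE5Hs/Hs and 13.7 to 24.7 CPM in WT embryos, without overlap, with 5 of 5 above 0 and a median change of 1.76. No marker of these 5 lists was at 0 in any E14.5 group, and their part in the members' difference was not tested.

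At E12.5 the median was near 0, and 0 of 80 members and 0.0% of all genes passed, with 1 member and 322 genes at an unadjusted p under 0.05 and 0 genes called by DESeq2. The median member change was 0.00. Over the leave-one-out fits it ran from −0.09 without E12.5 WT replicate 1 to 0.05 without E12.5 WT replicate 2. Of 80 members, 39 were below 0, against 49.3% of all genes. Member log2 CPM averaged 8.70 ± 0.090 in HARE5Hs/Hs and 8.70 ± 0.176 in WT embryos. The E12.5 groups overlapped in 79 of 80 members; of all genes, 3.81% were lower and 3.34% higher in HARE5Hs/Hs without overlap. Averaged over both ages, 0 members passed in edgeR and in DESeq2 (3 members and 1366 genes at an unadjusted p under 0.05), where again 0.0% of all genes passed.

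Rpl30 was the single member lower in HARE5Hs/Hs than in WT embryos without overlap at both ages. The values above were 13.8 to 17.3 CPM in HARE5Hs/Hs and 18.1 to 23.5 CPM in WT at E14.5, and 21.0 to 27.9 CPM in HARE5Hs/Hs and 29.9 to 34.0 CPM in WT at E12.5. At E14.5 its change was −0.44 with an SE of 0.144 and did not pass (edgeR adjusted p = 0.342). Neither the change of −0.41 at E12.5 (SE 0.140, edgeR adjusted p = 1.0) nor the average of −0.42 (SE 0.100, edgeR adjusted p = 0.508) passed. As a low row that may share reads with copies, it is uncertain. At E14.5 other members with small p, also not passing, were Rpl14 (−0.27) and Rps2 (−0.24), each lower in all HARE5Hs/Hs libraries. At E12.5 they were Rpl28 (−0.15), Rpl37a (−0.12) and Rps24 (0.12), each overlapping. Averaged over ages they were Rpl28 and Rps2 (both −0.16) and Rpl37a (−0.13).

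The difference of the 2 age changes, HARE5Hs/Hs minus WT, was tested directly as an interaction. In edgeR 0 of 80 members and 0.0% of all genes passed, with 1 member and 731 genes at an unadjusted p under 0.05; DESeq2 called 1 gene and 0 members. The median difference over members was −0.09, with 73 of 80 below 0 against 52.7% of all genes. Without E12.5 WT replicate 1 that median was 0.02. In each other leave-one-out fit it stayed below 0, from −0.15 without E12.5 WT replicate 2 to −0.05 without E12.5 HARE5Hs/Hs replicate 2. The members with the smallest p were Rpl22l1 (−0.41, SE 0.179, edgeR adjusted p = 0.921), Rps24 (−0.27), Rpl14 (−0.26) and Rpl7l1 (−0.20). A larger fall in HARE5Hs/Hs embryos was thus not detected for any single member. The median difference was near 0 without E12.5 WT replicate 1 and below 0 in the other leave-one-out fits.

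Genes that work beside the members were counted from lists of symbols. Of ribosomal proteins with other symbols, 5 were in the tables and tested. Fau, whose precursor yields a small subunit protein, fell by 0.32 in HARE5Hs/Hs (edgeR adjusted p = 0.0115) and by 0.33 in WT embryos (edgeR adjusted p = 0.0143); it was lost without E12.5 HARE5Hs/Hs replicate 2 (0.0822) and, in WT, without E12.5 replicates 2 or 3 or E14.5 replicate 1 (adjusted p of 0.0598 to 0.0759). Rps3a1 fell by 0.46 in HARE5Hs/Hs (edgeR adjusted p = 0.00134) and did not pass in WT at −0.21. Rpl36al and Rps27rt did not pass in either genotype.

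Of 18 other genes held to carry a TOP tract, 9 fell and 1 rose in HARE5Hs/Hs and 6 fell and 0 rose in WT embryos, with medians of −0.24 and −0.13. Of all tested genes 22.0% fell in HARE5Hs/Hs and 15.2% in WT embryos. Without 1 library, 6 to 9 of the 18 fell in HARE5Hs/Hs and 4 to 9 in WT embryos. Npm1, a nucleolar chaperone of ribosome assembly, fell by 0.85 (SE 0.118, edgeR adjusted p = 0.000203) in HARE5Hs/Hs and by 0.50 (SE 0.117, edgeR adjusted p = 0.00681) in WT embryos. Pabpc1, the cytoplasmic poly(A)-binding protein, fell by 0.51 and by 0.38 (edgeR adjusted p of 0.000582 and 0.00480). Vim, the intermediate filament of radial glia, fell by 0.60 and by 0.41 (edgeR adjusted p of 0.000174 and 0.00263); it is also a marker of those cells.

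Mitochondrial ribosomal proteins, which serve a separate ribosome, were tested for 77 genes. In HARE5Hs/Hs embryos 25 fell and 0 rose, with a median of −0.24, and in WT embryos 10 fell and 0 rose, with a median of −0.17. Over all tested genes 22.0% fell in HARE5Hs/Hs and 15.2% in WT embryos, so the WT count of this list was not above the share of all genes. Mrpl12 fell by 0.53 (edgeR adjusted p = 0.00163) and by 0.39 (edgeR adjusted p = 0.0135), the WT call being lost without E12.5 WT replicates 2 or 3 or E14.5 WT replicate 1 (0.0525 to 0.0693). Mrps7 fell by 0.33 in HARE5Hs/Hs and by 0.38 in WT embryos (edgeR adjusted p of 0.0232 and 0.0169); the first call was lost without either of HARE5Hs/Hs replicates 2 and 3 at E12.5 or 1 and 2 at E14.5 (0.0692 to 0.116), the second without E14.5 WT replicate 1 (0.0666). Mrpl42 fell by 0.53 in HARE5Hs/Hs (edgeR adjusted p = 0.00223) and not in WT embryos (−0.18, edgeR adjusted p = 0.230). The count in WT ran from 0 to 18 over the leave-one-out fits, lowest without E14.5 WT replicate 1 and highest without E12.5 WT replicate 1; in HARE5Hs/Hs it ran from 11 to 28, lowest without E12.5 HARE5Hs/Hs replicate 2.

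Of 48 tested initiation factor genes, 17 fell and 3 rose in HARE5Hs/Hs and 13 fell and 2 rose in WT embryos, where 22.0% and 15.2% of all tested genes fell and 23.7% and 20.0% rose. Eif4ebp1, the repressor of cap binding that mTORC1 phosphorylates, fell by 1.74 (SE 0.279, edgeR adjusted p = 0.000451) and by 1.27 (SE 0.273, edgeR adjusted p = 0.00420), to 4.64 ± 1.54 CPM in E14.5 HARE5Hs/Hs against 15.6 ± 3.15 CPM in E12.5 HARE5Hs/Hs embryos, and 6.31 ± 1.72 against 15.2 ± 2.14 CPM in WT. Eif1a, a factor of start codon scanning, fell by 0.57 and by 0.50 (edgeR adjusted p of 0.000743 and 0.00249). Eif5a, which aids elongation at proline-rich stretches, fell by 0.57 and by 0.42 (edgeR adjusted p of 0.000587 and 0.00524). Over the leave-one-out fits the count of falling factors ran from 11 to 18 in HARE5Hs/Hs embryos, lowest without E12.5 HARE5Hs/Hs replicate 2, and from 3 to 18 in WT embryos, lowest without E12.5 WT replicate 2. In WT it was also 5 without E12.5 replicate 3 or E14.5 replicate 1, and 6 without E14.5 replicate 3. Of all genes, 1418 of 14533 fell without E12.5 WT replicate 2 and 1528 of 14524 without replicate 3. Without E14.5 WT replicates 1 and 3, 1335 of 14550 and 1926 of 14525 genes fell. These WT counts of 3, 5 and 6 factors were thus near or below the share of all genes. The count of rising factors ran from 1 to 4 in HARE5Hs/Hs, lowest without E14.5 replicate 2, and from 1 to 2 in WT embryos, at 1 without replicates 2 or 3 at E12.5 or 1 or 2 at E14.5.

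Of 13 mTORC1 genes, 1 fell and 2 rose in HARE5Hs/Hs and 1 fell and 1 rose in WT embryos. Of all tested genes, 22.0% fell and 23.7% rose in HARE5Hs/Hs, and 15.2% fell and 20.0% rose in WT embryos. No count of the mTORC1 list was above those shares. Eif4ebp1, which is also in the initiation factor list, was the fall in both genotypes. Tsc1, an inhibitor of mTORC1, rose by 0.60 (edgeR adjusted p = 0.000417) and by 0.49 (edgeR adjusted p = 0.00245). Of 8 Myc family genes, 4 rose and 1 fell in HARE5Hs/Hs and 2 rose and 0 fell in WT embryos. The WT count of 2 was near the share of all genes that rose. Mycn, which encodes the Myc factor of neural progenitors, was the fall, by 0.26 (edgeR adjusted p = 0.0298) in HARE5Hs/Hs embryos. Its change of −0.10 in WT did not pass (edgeR adjusted p = 0.412). No Myc family gene fell in HARE5Hs/Hs without either of replicates 2 and 3 at E12.5 or 2 and 3 at E14.5. Mxi1, a Myc antagonist, rose by 0.68 (edgeR adjusted p = 0.000141) and by 0.46 (edgeR adjusted p = 0.00210). Mnt and Mxd4, also antagonists, rose by 0.56 and by 1.03 in HARE5Hs/Hs embryos (edgeR adjusted p of 0.00139 and 0.00491). In WT, Mxd4 rose by 0.71 (edgeR adjusted p = 0.0387), a call lost without any library but E12.5 WT replicate 1, at 0.0517 to 0.134, and Mnt did not pass at 0.27. Mycn was named after its values were seen, and not every Myc family gene that rose is named, so these genes do not stand for the list. Levels of these mRNAs say nothing of the activity of the proteins. The part of these genes in the members' change was not tested.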

How the data were processed

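Per the labels' protocols, cortex of single embryos was extracted with TRIzol and sequenced as TruSeq Stranded mRNA libraries. Per the submitters' processing notes, STAR, mm39 and DESeq2 were used. The deposited data carry star_salmon in their names, which names Salmon beside STAR, though the notes do not list Salmon. For the strand setting, the handling of reads that match several copies and all versions, the sources used here give nothing. The deposited columns, per the file headers, are an expected count and an FPKM value for each library in both tables. Each table also holds the authors' DESeq2 result for 1 age comparison: log2 fold change, p-value and adjusted p-value. The deposited expected counts are whole numbers. In each table, 12 columns of 6 libraries that match no sample label were not used here.

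Counts were analysed with edgeR 4.0.16 (R 4.3.3): filterByExpr with a minimum count of 10, TMM, 1 mean per group over 12 libraries, quasi-likelihood test, Benjamini-Hochberg adjustment over 14311 genes, threshold 0.05. Tests are 2-sided. SE is the absolute log2 fold change divided by the square root of F. Log2 CPM used a prior count of 2. DESeq2 1.42.0 and the settings in the closing section were alternatives. The fit was tested on simulated data. Named members are the 6 largest folds past the threshold per contrast, or the 4 smallest p where fewer than 3 passed; genes ending in l or l1 with namesakes; Rplp0, Rplp1, Rplp2 and Rpsa; the 3 highest and 3 lowest by FPKM; 2 genes per other list; and the 3 genes most alike. Rps6, Rps20, Rpl26, Rpl34, Rps15a, Rps27rt and Mycn were named after their values were seen. A few genes counted here are not reported by name. Members and lists were chosen with earlier results of these data known. The 3 embryos a group limit the precision.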

Additional observations from a re-analysis of the deposited data

How the results depend on the processing

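Under every alternative, the median age change of the members stayed below 0 in both genotypes. The WT count of 26 falling members was 56 with upper-quartile scaling. It was 39 with DESeq2, where 2639 of 15496 genes fell, and 32 with DESeq2 size factors (2398 of 14311 genes). A filter of 1 CPM in 3 libraries gave 28 (2171 of 13831 genes). TMM factors computed without the members gave 21 (2064 of 14311 genes). Using only the libraries compared gave 20 (2283 of 13836 genes), and no filter gave 18 (1940 of 17957 genes). The WT count ran from 5 to 62 over the leave-one-out fits, whose all-gene counts are given above. The HARE5Hs/Hs count of 56 was 76 with upper-quartile scaling, 52 to 59 with the other settings and 36 to 57 over the leave-one-out fits. Of all genes, 2823 to 3281 fell in HARE5Hs/Hs with those other settings and 2155 to 3154 over the leave-one-out fits. Upper-quartile scaling moved the median of all genes to −0.15 in HARE5Hs/Hs and −0.11 in WT embryos, and those of the members to −0.44 and −0.30. Under it, 4287 genes fell and 2670 rose in HARE5Hs/Hs, against 3153 and 3385 with TMM, and 3091 fell and 2209 rose in WT embryos, against 2178 and 2863. Over the leave-one-out fits, member medians ran from −0.35 to −0.25 in HARE5Hs/Hs, from −0.31 to −0.13 in WT, from −0.11 to −0.08 for genotype at E14.5, from −0.09 to 0.05 at E12.5, from −0.09 to −0.02 for genotype averaged, and from −0.15 to 0.0177 for the interaction, and 0 members passed in any genotype contrast. As a share of FPKM the members held 14.3% (E14.5 HARE5Hs/Hs), 15.6% (E14.5 WT), 16.9% (E12.5 HARE5Hs/Hs) and 17.4% (E12.5 WT); without a library, shares of counts ran from 3.56% to 3.67%, from 3.86% to 4.11%, from 4.63% to 4.93% and from 4.69% to 5.10% in the same order.

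Signs of single genes were followed for the members named by rule. The sign turned for 2 of these, neither of which passed. Rps27 in WT, 0.02 as reported, was −0.00622 with DESeq2 size factors, −0.00618 in DESeq2, −0.0806 with upper-quartile scaling, −0.0153 with only the libraries compared and −0.13 with retrocopy rows added, and ran from −0.38 to 0.30 over the leave-one-out fits. In HARE5Hs/Hs it was −0.16 with retrocopy rows added. Rpl39 in WT ran from −0.23 to 0.0116 over those fits, above 0 without E12.5 WT replicate 2. The causes were not tested; adding retrocopy rows was chosen after seeing the data. Of the single genes named as passing, 271 leave-one-out values still passed and 41 did not, and over the other settings 514 still passed and 6 did not, all in the same direction.

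Whether equal replicate numbers mark shared litters is not labelled. After group means were removed, HARE5Hs/Hs libraries were correlated with WT libraries of the same number (1, 2, 3). The correlations were −0.112, −0.144 and −0.443 at E14.5 and 0.0963, 0.336 and 0.124 at E12.5. With 3 libraries a group, these values cannot show whether equal numbers mark a shared litter. With the replicate number as a block, 56 and 26 members fell in HARE5Hs/Hs and WT, where 2966 and 1991 of 14311 genes fell. Between genotypes 0 members passed with the block. Among the other lists the block moved the WT count of mitochondrial ribosomal proteins to 6.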
